A study of Elaeis guineensis with 38 samples.

Results

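The regions described here are stretches of oil palm leaf chromatin that carried the histone mark H3K4me3 in most normal-fruited palms and the histone mark H3K27me3 in exactly 2 of them. The choice rested on measured peaks. Overlap by 1 bp or more joined the peaks of all 19 lists into 5888 regions, and a region was kept with an H3K4me3 peak in at least 3 of the 5 normal palms and an H3K27me3 peak in exactly 2 of the same 5. This left 289 member regions of the 5888. Chromatin immunoprecipitation with sequencing (ChIP-seq) had been run on leaf of frond 0 from 10 clonal Elaeis guineensis palms of 1 ortet, the palm from which a clone is propagated. Mantled fruit was borne by 5 palms (673, 687, 754, 765 and 770), of which 4 had an H3K4me3 list since none of palm 673 was analysed here, and normal fruit by the other 5 (753, 758, 764, 767 and 768). Mouse monoclonal antibodies were used, and each palm gave 1 library per mark, called against its own input of chromatin that was not immunoprecipitated. No palm carried a treatment or a transgene in the labels, and palm age was not given there. Fruit phenotype describes the palm, while the chromatin came from its leaf and not from flowers or fruit. The identity of the tissue was not checked against markers, because the lists hold no gene names.

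H3K4me3, trimethylation of lysine 4 of histone H3, is typical of the starts of active genes. H3K27me3, trimethylation of lysine 27, is deposited by Polycomb complexes at silenced genes, and in plants many developmental regulators carry it in tissues where they are off. Stretches that carry both marks are known in plants and animals as bivalent chromatin, although in a tissue of mixed cells the marks can also sit on the same stretch in different cells. Mantling turns the stamens of oil palm flowers into carpel-like organs in some palms raised by tissue culture.

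Depth was uneven, and some libraries stood apart. Each ChIP library kept 229258 to 10374962 fragments after the caller's filter, and each input 7091506 to 13325762. Peak lists held 296 to 3910 peaks for H3K4me3 and 472 to 1581 for H3K27me3. The members were compared with 2 sets of regions, the 678 low-H3K27me3 regions (H3K4me3 in at least 3 and H3K27me3 in 0 or 1 normal palms) and the 290 both-mark regions (each mark in at least 3 normal palms). At low-H3K27me3 regions, the H3K4me3 lists of mantled palms 687, 754 and 770 showed a peak in 1.62, 2.06 and 3.69% of cases, against 96.8% in mantled palm 765. At both-mark regions the same 3 lists had 47.2, 67.6 and 82.8%, and palm 765 had 79.0%. So among the 4 mantled H3K4me3 lists only that of palm 765 covered most low-H3K27me3 regions, while those of palms 754 and 770 also covered most both-mark regions. The shares and tests that rest on the H3K4me3 list of palm 765 are also given without it. In palm 754 the list labelled H3K27me3 covered more of the low-H3K27me3 regions than the list labelled H3K4me3, at 23.9 against 2.06%, and the H3K27me3 lists of mantled palms 673 and 765 covered 55.8 and 64.9%. Among the normal palms, whose lists defined this set, the H3K27me3 list of palm 767 covered 57.2%. The H3K27me3 lists of normal palms 753, 758, 764 and 768 covered 0.295, 0.442, 3.39 and 3.98%. Whether marks were exchanged in palm 754, or whether the antibodies differed in specificity between libraries, was not tested. A region with both marks therefore means one with a peak in a list of each label, and tests with the labels of palm 754 exchanged are given where they change a direction.

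Mantled lists entered the merging of peaks into regions but not the counts that chose the members, and with regions built from the normal lists alone there were 288 members, of which 286 overlapped one of the 289. In the mantled palms, H3K27me3 was found at most members in some palms and at few in others. An H3K27me3 peak lay at 88.2% (95% Wilson interval 84.0 to 91.5%) of the 289 members in palm 765. Palm 673 had 76.5% (95% Wilson interval 71.3 to 81.0%) and palm 754 had 60.2% (95% Wilson interval 54.5 to 65.7%). Palm 770 had 21.5% (95% Wilson interval 17.1 to 26.5%) and palm 687 had 5.88% (95% Wilson interval 3.70 to 9.22%). The intervals cover counting error over regions only. Palms 673, 754 and 765 thus stood apart from palms 687 and 770, with no value between 21.5 and 60.2%. The first 3 lists were also deeper, at 10374962, 1541992 and 1865140 fragments against 253624 and 963067. The part of depth in this split was not tested. Over all 5888 regions, the lists of palms 673, 754, 765, 687 and 770 had a peak at 26.1, 12.6, 22.4, 7.90 and 15.2%. H3K4me3 lay at 94.8% (95% Wilson interval 91.6 to 96.8%) of the members in palm 765, but at 31.1% in palm 770, 10.4% in palm 754 and 7.61% in palm 687. Over all 5888 regions, the H3K4me3 lists of palms 765, 770, 754 and 687 had a peak at 59.6, 9.15, 18.1 and 4.82%. In palm 754, H3K4me3 was thus less frequent at members than over all regions. Palm 765 was the sole mantled palm with both marks at most members: 251 of the 289 (86.9%) carried both, against 63.7% of low-H3K27me3 regions, 75.2% of both-mark regions and 19.4% of all 5888 regions. In such bulk chromatin, a mark in fewer cells and less of the mark per cell cannot be told apart.

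**Figure D1:**
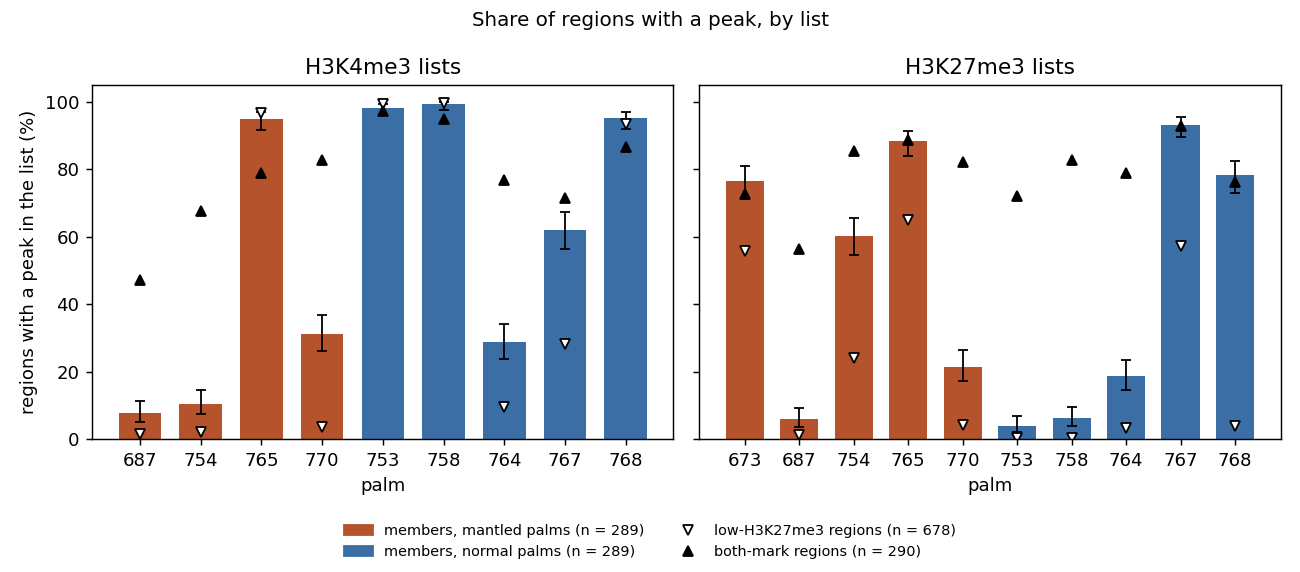
Percentage of regions with a peak in each list, for H3K4me3 (left) and H3K27me3 (right), by palm. Bars show the 289 members with 95% Wilson intervals in mantled (brown) and normal (blue) palms, open triangles the 678 low-H3K27me3 regions and filled triangles the 290 both-mark regions. Bars of normal palms were fixed in part by the choice of members. H3K27me3 bars are high in mantled palms 673, 754 and 765 and in normal palms 767 and 768.

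Taken over the mantled lists, H3K4me3 covered 36.0% ± 40.6 of the members (SD, n = 4) and H3K27me3 covered 50.4% ± 35.5 (SD, n = 5). Without palm 765, H3K4me3 covered 16.4% ± 12.9 (SD, n = 3). The difference of -14.5 percentage points was within the spread between lists (two-sided exact permutation p = 0.571, adjusted p = 0.643, smallest possible p = 0.00794). It was -24.6 without palm 765, -7.96 without palm 673 and -3.49 without palm 754, and it turned to 7.96 with the marks of palm 754 exchanged. Per region, 156 of the 289 members (54.0%) had an H3K27me3 peak in at least 3 of the 5 mantled lists, against 10.8% of all regions, and 17 (5.88%) had an H3K4me3 peak in at least 3 of the 4 mantled lists, against 4.13% of all regions. The first share lay between the 18.0% of low-H3K27me3 regions and the 85.2% of both-mark regions. The second lay between the 0.295% of low-H3K27me3 regions and the 65.2% of both-mark regions. H3K4me3 was in all 3 lists other than that of palm 765 at 0 members and in at least 1 of them at 119. A peak in no mantled list was found at 0 members, 0.590% of low-H3K27me3 regions, 0 both-mark regions and 17.7% of all regions. With the H3K4me3 list of palm 765 left out, 3 members had none. Of the 173 members with H3K4me3 in exactly 1 mantled list, 167 had it in palm 765. H3K4me3 was absent from all 4 mantled lists at 3 members. Counts given here without a share over all regions were not set against other regions and describe the members alone.

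Members were set against both other sets within each mantled H3K27me3 list, so that depth and list length were the same on both sides. The share with an H3K27me3 peak was higher at members than at low-H3K27me3 regions in 5 of 5 palms, by 20.7, 4.70, 36.3, 23.3 and 17.2 percentage points in palms 673, 687, 754, 765 and 770. The mean of 20.4 points gave the smallest p that 5 palms allow (two-sided exact sign-flip permutation p = 0.0625, adjusted p = 0.281) and so did not pass. The H3K27me3 list of palm 754 gave the highest value, and the mean was 16.5 points without it. Against both-mark regions the members differed by -50.3, -25.3 and -60.6 points in palms 687, 754 and 770, by 3.71 points in palm 673 and by -0.385 points in palm 765 (mean -26.6, exact permutation p = 0.188, adjusted p = 0.321, n = 5). Where only peaks enriched 3-fold or more were kept, the means were 5.29 points against low-H3K27me3 and -6.32 against both-mark regions. In palms 673 and 765, therefore, H3K27me3 covered members about as often as both-mark regions: 76.5% against 72.8% in palm 673 and 88.2% against 88.6% in palm 765.

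H3K4me3 at members exceeded that at low-H3K27me3 regions in 3 of the 4 mantled lists, by 5.99 points in palm 687, 8.32 in palm 754 and 27.5 in palm 770, and differed by -1.95 points in palm 765. The mean of 9.95 points was within the spread between palms (exact permutation p = 0.250, adjusted p = 0.321, smallest possible p = 0.125, n = 4). It was 4.12 points without palm 770 and 13.9 without palm 765. Set against both-mark regions, the members differed by -39.6, -57.2 and -51.6 points in palms 687, 754 and 770 and by 15.8 points in palm 765 (mean -33.2, exact permutation p = 0.250, adjusted p = 0.321, n = 4). Without palm 765 that mean was -49.5 points, and with peaks enriched 3-fold or more alone it was -7.06. Palm 765 thus ran opposite to the other 3 mantled palms in both comparisons of H3K4me3.

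By the rule, members formed the class with H3K27me3 in 2 of the 5 normal palms, and mantled lists differed in how their shares changed along this number. Among regions with H3K4me3 in at least 3 normal palms, 235, 443, 289, 101, 80 and 109 had H3K27me3 in 0, 1, 2, 3, 4 and 5 normal palms. The H3K27me3 list of mantled palm 754 had a peak at 6.81, 33.0, 60.2, 75.2, 83.8 and 96.3% of these in the same order, a steady climb. In palm 765 the shares were 40.9, 77.7, 88.2, 82.2, 86.2 and 96.3%, so most of the increase came before the members' class. In palm 687 they were 0, 1.81, 5.88, 18.8, 52.5 and 93.6%, where nearly all of it came after. Palm 673 had 38.3, 65.0, 76.5, 75.2, 77.5 and 67.0%, about level from the members' class to 4 normal palms and lower at 5. The H3K4me3 list of palm 765 ran the other way, with 98.3, 95.9, 94.8, 85.1, 80.0 and 72.5%, while that of palm 770 had 1.28, 4.97, 31.1, 63.4, 85.0 and 99.1%. The median local background of the regions, in multiples of the average that the caller's genome size implies, was 6.0, 11, 15.6, 19.8, 65.4 and 149 over the same classes. It therefore climbed with the number of palms marked, and its part in the shares was not tested.

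**Figure D2:**
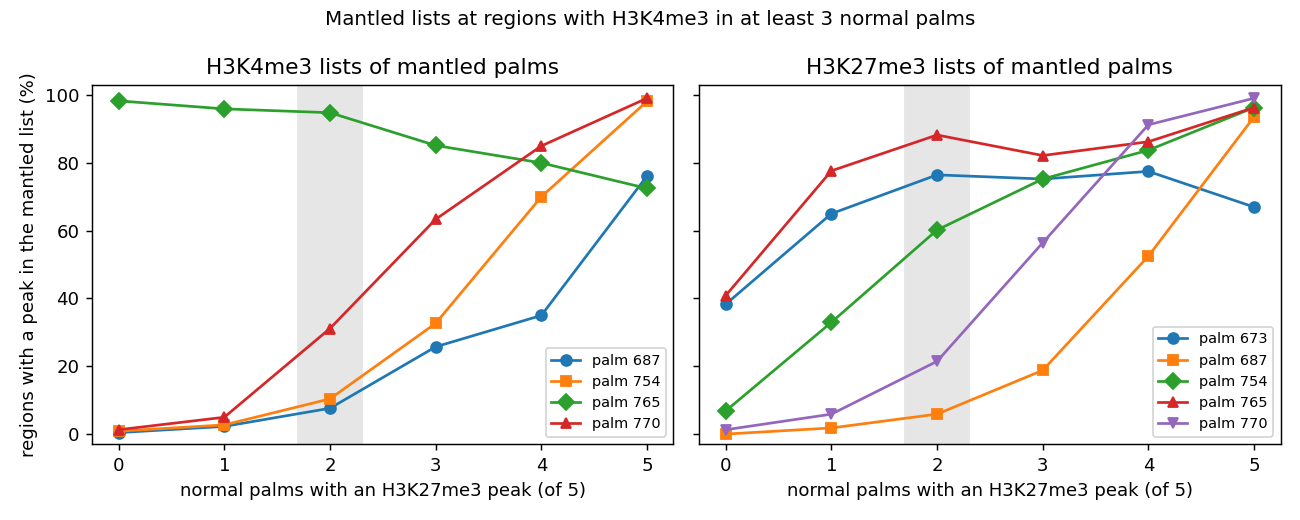
Percentage of regions with a peak in each mantled list (vertical axis) by the number of normal palms with an H3K27me3 peak (horizontal axis), for regions with H3K4me3 in at least 3 normal palms. Lines are mantled palms, H3K4me3 lists on the left and H3K27me3 lists on the right, and the grey band marks the members. H3K4me3 of palm 765 decreases towards the right, to 72.5%, where the other 3 palms climb.

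Where H3K27me3 was called at members in mantled lists, its peaks were mostly narrower than at both-mark regions. The median member peak was 782 bp wide in palm 673, 270 bp in palm 687, 439 bp in palm 754, 635 bp in palm 765 and 373 bp in palm 770. At both-mark regions the medians were 996, 449, 609, 573 and 525 bp in the same palms. Width was thus lower at members in 4 of 5 palms, palm 765 being the exception, and the log2 ratio averaged -0.38 (0.768 times as wide, exact permutation p = 0.125, adjusted p = 0.281, n = 5). Set against low-H3K27me3 regions the member peaks were wider in 4 of 4 palms with at least 10 peaks in each set (mean log2 ratio 0.21, exact permutation p = 0.125, which is the smallest possible with 4 palms, adjusted p = 0.281). Among regions with a local background of at most 10 times the average, the ratio was -0.082 to both-mark regions (exact permutation p = 0.875) and -0.0474 to low-H3K27me3 regions.

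Fold enrichment, the authors' ratio of ChIP to local background, was averaged by the caller over a broad H3K27me3 peak. Its median at members was 1.55, 4.01, 2.03, 2.44 and 2.30 in palms 673, 687, 754, 765 and 770. Both-mark regions had 1.34, 2.45, 1.76, 1.82 and 2.06 in the same palms. Members were higher in 5 of 5 lists, with a mean log2 ratio of 0.34 (1.27 times, exact permutation p = 0.0625, the smallest possible, adjusted p = 0.281). The ratio turned to -0.21 among regions with a local background of at most 10 times the average and to -0.0461 where only peaks enriched 3-fold or more were kept. The median local background of these peaks was 21.7, 21.3, 25, 22.3 and 25.1 at members and 91.6, 129, 83.7, 86.9 and 77.6 at both-mark regions, in the same order of palms. Against low-H3K27me3 regions the log2 ratio averaged -0.01 (exact permutation p = 1, adjusted p = 1, n = 4).

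**Figure D3:**
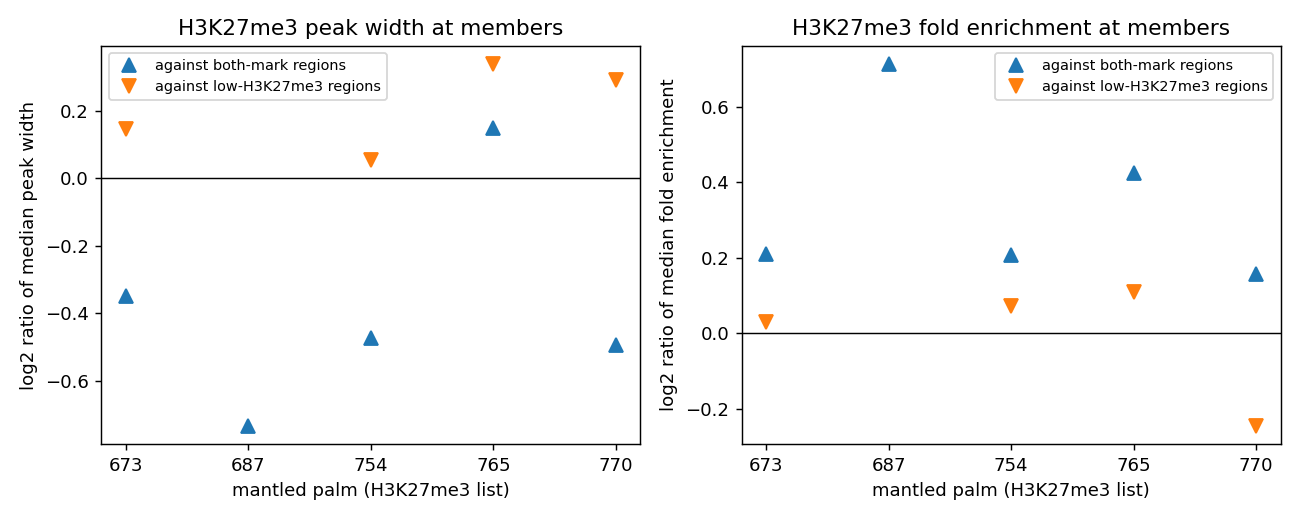
Log2 ratio of the median width (left) and of the median fold enrichment (right) of H3K27me3 peaks at members over those at both-mark regions (upward triangles) and over those at low-H3K27me3 regions (downward triangles), per mantled palm. Each point is 1 list, and palm 687 had fewer than 10 peaks at low-H3K27me3 regions. Fold enrichment at members lies above both-mark regions in all 5 lists, by log2 ratios of 0.16 to 0.71.

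H3K4me3 peaks at members were strongest in mantled palm 765. Its median fold enrichment, taken by the caller at the summit, was 6.58 over 338 peaks, with quartiles of 3.30 and 11.3. Palms 687, 754 and 770 had 4.18, 3.34 and 2.70 over 22, 33 and 95 peaks. In the normal palms the medians were 3.09, 2.28, 2.05, 4.96 and 4.14 in palms 753, 758, 764, 767 and 768. Peaks of palm 765 were also wider, with a median of 683 bp at members against 291 to 335 bp in the other mantled lists and 277 to 457 bp in the normal lists. The local background under them was 5.72 times the average in palm 765, the lowest among the 9 H3K4me3 lists at members, which otherwise ran from 10.5 to 42.8. Fold values are relative to each library's own input and depth, so their order across palms is a description of lists.

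Peaks of the marks lay on the same stretch rather than side by side. In mantled palm 765, an H3K27me3 peak overlapped an H3K4me3 peak of the same palm at 251 of the 251 members with both, and it covered the H3K4me3 summit at 245 of them (97.6%). The centre of the strongest H3K27me3 peak lay a median of 150.5 bp from that summit. In mantled palm 770, H3K27me3 covered the H3K4me3 summit at 36 of 37 members with both, at a median distance of 87.0 bp. Mantled palms 754 and 687 had both marks at 14 and 4 members, with the summit covered at 11 and 3. In the normal palms, which chose the members, the summit was covered at 167 of 169 members in palm 767, 200 of 224 in palm 768, 27 of 29 in palm 764, 16 of 18 in palm 758 and 5 of 8 in palm 753. Peaks of 1 region touch directly or through peaks of other lists, so overlap is in part set by the merging. The placement was shared by other regions: in palm 765 the summit was covered at 93.8% of 432 low-H3K27me3 regions and 97.7% of 218 both-mark regions with both marks.

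**Figure D4:**
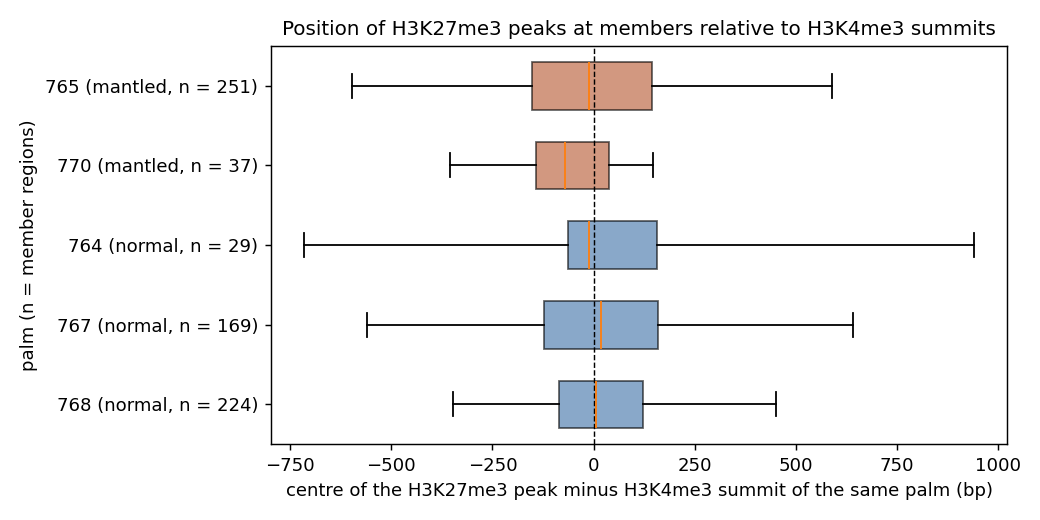
Distance in bp from the H3K4me3 summit to the centre of the strongest H3K27me3 peak of the same palm at member regions with both marks. Boxes span the quartiles with the median as a line, and whiskers the 5th to 95th percentiles, for the palms with at least 29 such members, with mantled palms (brown) above normal palms (blue). All 5 boxes include 0 bp.

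H3K4me3 summits of most palms lay near those of palm 765 at members. Summits were compared within a merged region, so their distance is in part set by the merging. At members, the strongest H3K4me3 summit lay within 200 bp of that of palm 765 in 72.2% of 18 members in mantled palm 687 and 80.5% of 87 in mantled palm 770, and in 76.9 to 84.7% of members in the 5 normal palms. Median distances were 75.5 and 18.0 bp in these mantled palms and 15.0 to 41.0 bp in the normal palms. These distances rest on the H3K4me3 list of palm 765. Mantled palm 754 differed, with 5 of 19 summits (26.3%) within 200 bp and a median distance of 880 bp.

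Fold enrichment varied together across members between some lists of different palms and marks. Across the 247 members with H3K27me3 peaks in both palms, the log2 fold enrichment of mantled palm 765 and normal palm 767 correlated at r = 0.891 (rho = 0.902). For H3K27me3 of mantled palms 765 and 673 the value was r = 0.795 over 200 members (rho = 0.824). The H3K27me3 fold of palm 765 also followed the H3K4me3 fold of normal palm 758, at r = 0.827 over 254 members (rho = 0.839). It followed the H3K4me3 fold of its own palm far less, at r = 0.133 over 251 members (rho = 0.0425). The H3K4me3 fold of palm 765 followed that of normal palm 758 at r = 0.359 over 273 members (rho = 0.273). With normal palm 753 the value was r = 0.559 over 274 members (rho = 0.463). These are descriptions over regions of the same libraries, which share local background and base composition.

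Which palms supplied the pair of H3K27me3 peaks was uneven. Normal palms 767 and 768 formed the pair at 221 of the 289 members (76.5%), palms 764 and 767 at 41 (14.2%), and 8 other pairs at 27 members together, of which palms 758 and 764 made up 11. Palm 767 had a peak at 269 members, palm 768 at 226, palm 764 at 54, palm 758 at 18 and palm 753 at 11. The H3K27me3 list of palm 767 also covered 57.2% of low-H3K27me3 regions, and the part of antibody specificity in this was not tested. The H3K27me3 lists came from 2056297 fragments in palm 764, 1998875 in palm 767, 903822 in palm 758, 356982 in palm 768 and 336380 in palm 753, and the part of depth in these numbers was not tested. Mantled palm 754, at 1541992 fragments, had 23.8% of its H3K27me3 peaks at members, and mantled palm 687, at 253624, had 3.60%. In normal palm 768 members made up 31.4% of the 727 peaks, and in normal palm 753 they made up 1.49% of 739. H3K4me3 was present in 3, 4 and 5 normal palms at 102, 133 and 54 members. By normal palm it was at 98.3, 99.3, 28.7, 61.9 and 95.2% of members in palms 753, 758, 764, 767 and 768, so the palms missing it were mainly 764 and 767.

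Mantled lists differed by the pair that marked a member. Members of the pair 767 and 768 carried H3K27me3 in 97.7% of cases in mantled palm 765, 76.0% in 673, 61.1% in 754, 13.1% in 770 and 1.36% in 687. The same palms had it at 61.0, 92.7, 51.2, 34.1 and 12.2% of the 41 members of the pair 764 and 767. At the 27 members of other pairs they had 51.9, 55.6, 66.7, 70.4 and 33.3%. H3K4me3 of mantled palm 754 was found at 0.452% of the pair 767 and 768, 29.3% of the pair 764 and 767 and 63.0% of the others, while palm 765 had H3K4me3 at 99.1, 100 and 51.9%. Palm 754 thus had H3K4me3 more often than palm 765 only outside the 2 commonest pairs. Members of the pair 764 and 767 were also longer, with a median of 1692 bp against 960 bp for the commonest pair, and had a median local background of 85.5 against 13.2 times the average. These differences between pairs were not tested.

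**Figure D5:**
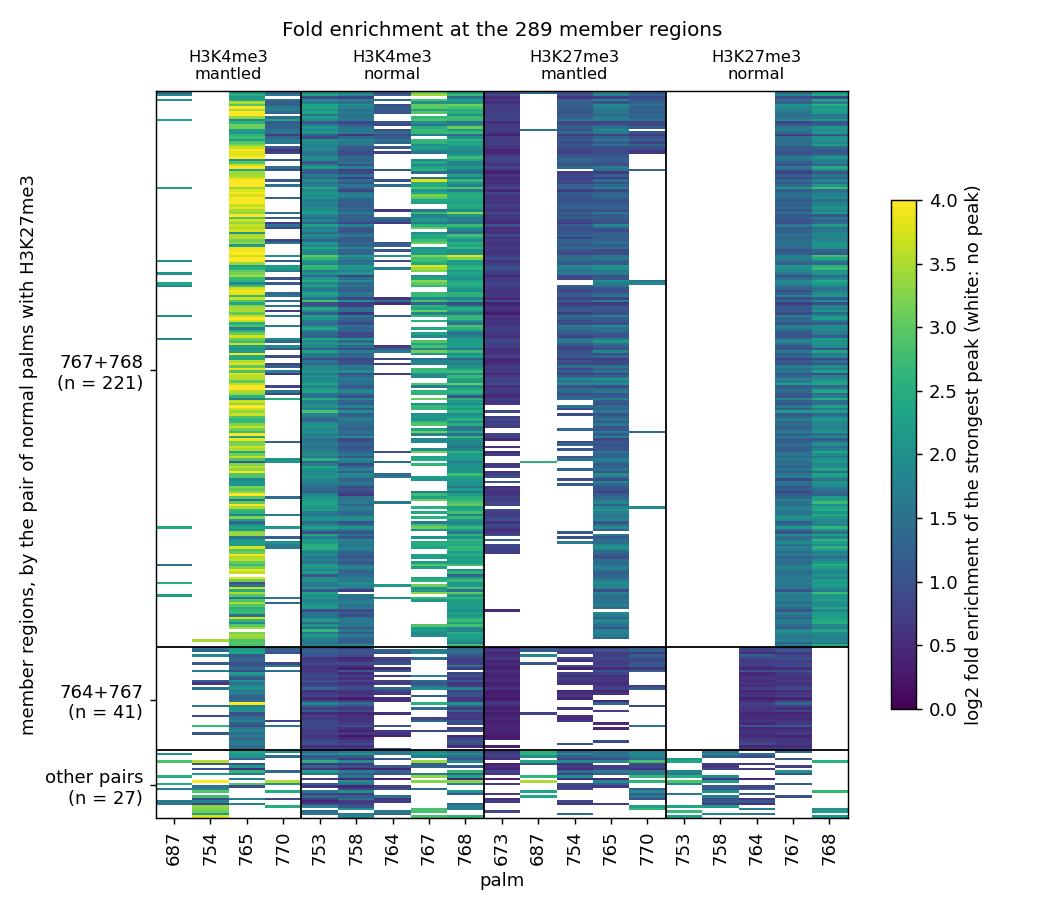
Log2 fold enrichment of the strongest peak at each of the 289 members (rows) in each of the 19 lists (columns, by palm), white where the list had no peak and at full colour from 4 upward. Rows are grouped by the pair of normal palms with H3K27me3 and ordered within a group by the number of mantled H3K27me3 lists with a peak. The empty columns in the upper block of normal H3K27me3 lists follow from the choice of members, while mantled peaks entered the merging but not the counts of the rule.

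Member regions were 277 to 6254 bp long, with a median of 1038 bp, against 928 bp for low-H3K27me3 regions, 1116 bp for both-mark regions and 473 bp for all regions. They lay on 259 scaffold pieces of 211 scaffolds, and 30 pieces held 2 members. The scaffold with most members, sc00001, held 5. A member began within the first 500 bp of its piece in 15.6% of cases, against 15.7% of all regions. Local background exceeded 10 times the average at 67.5% of members, 42.9% of low-H3K27me3 regions, 80.3% of both-mark regions and 32.8% of all regions. At the threshold of the rule, 102 members had H3K4me3 in exactly 3 normal palms, and 58 regions with H3K27me3 in 2 normal palms missed by having H3K4me3 in 2. Another 443 regions had H3K4me3 in at least 3 but H3K27me3 in 1 normal palm, and 101 had H3K27me3 in 3.

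No member had a peak in all 9 mantled lists, and 3 had one in 8. On p5.00_sc00596_p0002 from 9027 to 10170, H3K4me3 had a fold enrichment of 2.70, 4.82 and 2.36 in mantled palms 687, 765 and 770 and 3.98, 3.39, 1.78, 8.46 and 5.02 in normal palms 753, 758, 764, 767 and 768. H3K27me3 there was 1.55, 2.67, 1.93, 3.20 and 2.11 in mantled palms 673, 687, 754, 765 and 770 and 2.64 and 4.75 in normal palms 767 and 768. It was the sole region of the pair 767 and 768 among these 3, and H3K4me3 was highest in normal palm 767. On p5.00_sc00650_p0001 from 24 to 511, at the very start of its piece and with a local background of 150 times the average, H3K4me3 was 2.50, 4.84 and 2.29 in mantled palms 754, 765 and 770 and 2.45, 2.06, 2.40, 3.19 and 2.80 in normal palms 753, 758, 764, 767 and 768. Its H3K27me3 was 1.61, 2.17, 1.92, 2.13 and 2.40 in mantled palms 673, 687, 754, 765 and 770 and 1.69 and 2.15 in normal palms 764 and 767. Values of the phenotypes overlapped for each mark at this and the preceding region. The last of the 3, p5.00_sc00598_p0001 from 28101 to 29982, had H3K4me3 at 3.34, 4.13 and 2.21 in mantled palms 754, 765 and 770 and 1.85, 1.55 and 2.06 in normal palms 753, 758 and 768. All 3 mantled values exceeded the 3 normal ones here, at different depths. H3K27me3 was 1.31, 2.02, 1.46, 1.62 and 2.27 in mantled palms 673, 687, 754, 765 and 770 and 1.75 and 1.68 in normal palms 764 and 767, and these ranges overlapped.

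A further 5 of the most widely marked members had peaks in 7 mantled lists. H3K27me3 was present in all 5 mantled palms at 3 of them. On p5.00_sc00793_p0003 from 1666 to 2436 it was 1.67, 6.05, 3.70, 2.90 and 3.83 in mantled palms 673, 687, 754, 765 and 770 and 3.44 and 2.66 in normal palms 758 and 764, the mantled values spanning the normal ones. On p5.00_sc00183_p0003 from 2384 to 4111 it was 1.48, 5.82, 2.32, 2.63 and 3.28 in mantled palms 673, 687, 754, 765 and 770 and 2.76 and 2.47 in normal palms 758 and 767, and on p5.00_sc06531_p0001 from 90 to 1965 it was 1.70, 4.01, 2.25, 2.58 and 3.29 in mantled palms 673, 687, 754, 765 and 770 and 2.41 and 1.98 in normal palms 758 and 764. In each of these 3 the shallow list of palm 687 had the highest fold and the deepest list, of palm 673, the lowest. The other 2 belonged to the pair 767 and 768. At p5.00_sc00252_p0005 from 7093 to 8084, H3K4me3 reached 5.21, 3.72 and 5.03 in mantled palms 687, 765 and 770 and 3.65, 3.13, 7.49 and 6.46 in normal palms 753, 758, 767 and 768. At p5.00_sc00030_p0106 from 1317 to 3902 it was 3.70, 5.71 and 3.09 in mantled palms 687, 765 and 770 and 5.14, 3.66, 2.38, 10.8 and 6.41 in normal palms 753, 758, 764, 767 and 768. Palm 767 was highest at both, and the mantled and normal values overlapped.

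The median H3K4me3 fold over the normal lists with a peak was highest at p5.00_sc01117_p0002 from 7930 to 8239. This was a short region whose H3K27me3 pair was 753 and 758. Fold enrichment of H3K4me3 was 15.8 and 11.6 in mantled palms 754 and 770 and 3.72, 9.53 and 9.85 in normal palms 758, 767 and 768, and palm 765 had none. For H3K27me3 it was 11.2, 3.85 and 6.08 in mantled palms 687, 765 and 770 and 7.54 and 4.42 in normal palms 753 and 758. It led both marks by the median over normal lists and had a local background of 1.45 times the average. Next in H3K4me3 came p5.00_sc00167_p0040, which held 2 members. From 6117 to 7946, H3K4me3 was 13.0 and 4.0 in mantled palms 765 and 770 and 8.16, 4.59, 4.24, 9.70 and 13.7 in normal palms 753, 758, 764, 767 and 768, and H3K27me3 was 1.67, 2.61 and 2.91 in mantled palms 673, 754 and 765 and 3.37 and 6.96 in normal palms 767 and 768. From 13000 to 13276, H3K4me3 was 11.2 in mantled palm 765 and 4.91, 10.1 and 8.10 in normal palms 753, 767 and 768, and H3K27me3 was 3.44 in mantled palm 765 and 3.67 and 6.71 in normal palms 767 and 768. At both members of this piece the H3K27me3 folds of mantled palms were below those of normal palm 768, at different depths. At p5.00_sc00186_p0008 from 5743 to 6268, palm 765 had an H3K4me3 fold of 17.4, the sole mantled peak of that mark, against 6.35, 3.33, 6.89 and 9.12 in normal palms 753, 758, 767 and 768. H3K27me3 there was 1.83, 2.60 and 3.16 in mantled palms 673, 754 and 765 and 3.33 and 5.25 in normal palms 767 and 768.

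The 4 members with the highest median H3K27me3 over normal lists included p5.00_sc01117_p0002 from 7930 to 8239, described above. At all 4 the local background (1.01 to 5.59) lay below the member median of 15.6. Fold enrichment is a ratio to local background, so choosing by high fold favours a low background. The region on p5.00_sc00228_p0009 from 3730 to 4060 had H3K27me3 at 5.25, 4.04, 3.59 and 7.10 in mantled palms 687, 754, 765 and 770 and 5.25 and 5.90 in normal palms 753 and 768, with a background of 1.01 times the average. Its H3K4me3 was 7.27 and 12.0 in mantled palms 687 and 754 and 5.81, 3.98, 10.7 and 3.54 in normal palms 753, 758, 767 and 768. Here 4 of 5 mantled palms carried H3K27me3, and palm 765 lacked H3K4me3, unlike at most members. On p5.00_sc00026_p0095 from 58445 to 58985, H3K27me3 was 1.85, 2.51 and 3.39 in mantled palms 673, 754 and 765 and 4.35 and 6.73 in normal palms 767 and 768. Both normal values exceeded the 3 mantled ones, at different depths and at a region named for its high normal H3K27me3, which favours this order. On p5.00_sc01097_p0003 from 3728 to 4290 it was 1.78 in mantled palm 673 and 6.50 and 4.45 in normal palms 753 and 768, and on p5.00_sc00078_p0054 from 8383 to 8762, named as a member outside the commonest pair, it was 5.09 and 3.87 in mantled palms 687 and 770 and 4.03 and 6.34 in normal palms 758 and 768. Palm 765 had no peak of either mark at these last 2 regions.

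The 3 members without H3K4me3 in any mantled list kept H3K27me3 in 1 or 2 of them. On p5.00_sc00186_p0005 from 2105 to 3403, H3K27me3 was 1.59 and 2.20 in mantled palms 673 and 770 and 3.13 and 2.19 in normal palms 753 and 764, beside H3K4me3 of 1.79, 1.68 and 2.07 in normal palms 753, 758 and 768. On p5.00_sc02166_p0001 from 3127 to 3611 it was 3.37 in mantled palm 765 and 3.89 and 5.25 in normal palms 767 and 768, and H3K4me3 was 6.34, 3.02, 4.56 and 3.37 in normal palms 753, 758, 767 and 768. On p5.00_sc00076_p0078 from 10880 to 11165 it was 2.38 in mantled palm 765 and 2.94 and 4.23 in normal palms 767 and 768. The last 2 regions had H3K27me3 in palm 765 but no H3K4me3 there. Such members were few, and for all 3 the H3K4me3 count in normal palms was part of the rule.

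The 4 widest members were 4586 to 6254 bp long, and H3K4me3 was highest in mantled palm 765 at each of them. On p5.00_sc00073_p0005 from 13557 to 19810, the longest, H3K4me3 was 2.04 and 2.75 in mantled palms 754 and 765 and 1.65, 1.58 and 1.57 in normal palms 753, 758 and 764, and H3K27me3 was 1.30 in mantled palm 673 and 1.50 and 1.61 in normal palms 764 and 767. On p5.00_sc00928_p0004 from 1906 to 7464, H3K4me3 was 6.07 and 1.62 in mantled palms 765 and 770 and 2.36, 1.55, 1.88, 3.40 and 2.68 in normal palms 753, 758, 764, 767 and 768. On p5.00_sc00213_p0046 from 2953 to 8139, H3K4me3 had a fold of 10.8 in mantled palm 765, against 2.52, 1.72, 4.05 and 4.36 in normal palms 753, 758, 767 and 768. The fold of palm 765 thus ranged widely among these wide members. On p5.00_sc00067_p0039 from 15674 to 20259, H3K4me3 was 3.23 and 3.47 in mantled palms 754 and 765 and 2.20, 1.93 and 2.67 in normal palms 753, 758 and 768, and H3K27me3 was 1.38 and 1.87 in mantled palms 673 and 770 and 1.60 and 1.66 in normal palms 764 and 767. H3K27me3 folds at the 4 widest members did not exceed 2.63 in any list.

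Of the 30 pieces that held 2 members, the first 2 in the order of their names are given as examples. H3K4me3 was highest in mantled palm 765 at their members, unlike at the member of p5.00_sc00167_p0040 from 6117 to 7946 above. On p5.00_sc00002_p0308, H3K4me3 of mantled palm 765 was 12.7 from 5484 to 7586 and 12.9 from 22373 to 23185. In the normal palms it was 3.16, 1.97, 3.43 and 3.40 in palms 753, 758, 767 and 768 at the first position and 3.34, 2.39 and 4.49 in palms 753, 758 and 768 at the second. H3K27me3 was 1.50, 2.05 and 1.97 in mantled palms 673, 754 and 765 and 2.08 and 2.55 in normal palms 767 and 768 at the first of them. On p5.00_sc00008_p0017, palm 765 had H3K4me3 folds of 10.5 from 17875 to 19890 and 10.9 from 24158 to 24926. Normal palms had 2.19, 1.86, 2.73 and 2.70 in palms 753, 758, 767 and 768 at the first and 3.12, 2.75 and 4.92 in palms 753, 758 and 768 at the second. At all 4 members palm 765 was the sole mantled palm with H3K4me3 and lay above every normal palm.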

How the data were processed

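Peak lists of 19 ChIP libraries were analysed. Per the submitters' processing notes, the tools were MACS2 2.1.1.20160309, SAMtools 1.9, Bowtie2 2.2.5 and FastQC 0.11.3. Per the file headers, the authors set every library alone against the input of its palm, on paired-end fragments, at a q cutoff of 0.05, a genome size of 221 Mb and at most 1 fragment per position, narrow for H3K4me3 and broad for H3K27me3. Per the file headers, the deposited pileup is the coverage signal, fold enrichment a ratio to local background, and p-values and q-values are −log10 values. Depth was the fragments kept, per the file headers.

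Peaks sharing at least 1 bp were merged in Python 3.11.15 with pandas 2.3.3 and scipy 1.17.1, and the merging and tests were tested on simulated data. Local background was (pileup + 1) / fold enrichment − 1, over the average implied by the genome size. It compares peaks and is no copy number. Tests used mantled lists only: sign-flip permutation over palms for 8 results and a permutation over 9 lists for the difference between marks, adjusted together by the Benjamini-Hochberg method. Alternatives changed the minimum q and fold, the merging distance, the H3K4me3 minimum, the local background allowed, the mark labels of palm 754 and the palms kept. Palms are separate plants and served as replicates. Both lists of a palm share its number in the labels. Their deviations in log2 peak number correlated at r = 0.124 over 9 palms.

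The members and comparison sets were chosen with earlier results of these data known. Regions named were the 8 with peaks in most mantled lists, the 4 widest, the 4 highest in normal H3K4me3 and in normal H3K27me3, up to 4 outside the commonest pair or lacking mantled H3K4me3, and those on the first 2 pieces with most members. The rule also asked for members with no mantled peak, of which there were 0. Positions are as in the files, counted from 1 on scaffold pieces. No build name stands in the labels or headers read here. The gene table at hand is of assembly EG11, so genes and sequences of the regions were not used here.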

Additional observations from a re-analysis of the deposited data

Results flagged for a closer look

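Of 54 groups of 4 or more values examined for a value far from the others, 2 held one, and chance alone gives about 1 in 20. The median width of H3K4me3 peaks at members was 683 bp in mantled palm 765, against 291 to 335 bp in the other 3 mantled lists. The fold enrichment of H3K27me3 at p5.00_sc00252_p0005 from 7093 to 8084 was 1.87 in mantled palm 673, against 3.00 to 3.21 in the other 3 mantled lists with a peak there.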

How the results depend on the processing

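The 9 tests passed under no setting tried, and the sign-flip tests could not reach 0.05 with 4 or 5 palms. The number of members was 189 among peaks with a −log10 q of at least 5 and 80 among those with a fold enrichment of at least 3, and it ranged from 94 without normal palm 768 and 95 without 767 to 279 without 764. The H3K4me3 share minus the H3K27me3 share in mantled palms turned to 19.5 points at a fold enrichment of at least 3 and to 7.96 with the marks of palm 754 exchanged; with palm as a replicate block it was -7.96 points over 4 palms (exact permutation p = 1). The log2 ratio of H3K27me3 fold to both-mark regions turned to -0.0461 at a fold enrichment of at least 3 and to -0.212 at a local background of at most 10, and that of width to low-H3K27me3 regions to -0.0474 at this same background. The fold ratio to low-H3K27me3 regions, -0.01 as reported, was -0.274 for the pairs other than the commonest and -0.172 with peaks enriched 3-fold or more, and turned sign to 0.0342 at a −log10 q of at least 5, 0.0750 with H3K4me3 in at least 4 normal lists, 0.0168 at a background of at most 10, 0.0302 with palm 754 exchanged and 0.0380 for the commonest pair only. Keeping peaks enriched 3-fold or more, the H3K27me3 share differed by 5.29 points from low-H3K27me3 and -6.32 from both-mark regions, and the H3K4me3 share by 3.06 and -7.06. Against both-mark regions the H3K27me3 share differed by -11.5 points and the width ratio was -0.082 at a background of at most 10, and the H3K27me3 and H3K4me3 shares differed by -11.1 and -15.7 points from regions with H3K27me3 in 3 normal palms alone. With regions merged from normal lists only, no result changed sign and there were 288 members. The last setting, both choices by pair and the removal of the H3K27me3 list of palm 754 were chosen after seeing the data. The cause of these changes was not tested. Leaving out 1 mantled palm at a time gave 16.5 to 24.4 points for the H3K27me3 share against low-H3K27me3 regions, -34.2 to -18.1 against both-mark regions, 4.12 to 13.9 and -49.5 to -25.1 for the H3K4me3 share in the same order, and -24.6 to -3.49 between the marks. For H3K27me3 width it gave -0.512 to -0.292 against both-mark and 0.163 to 0.258 against low-H3K27me3 regions, and for fold 0.250 to 0.389 and -0.0481 to 0.0701 in the same order. Fragments were fewest in the H3K4me3 lists of palms 687 and 767 and the H3K27me3 lists of palms 687, 753 and 768 (229258 to 356982), and in any list a missing peak does not show a missing mark.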
